A study of Mus musculus with 12 samples.

Results

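Troponin is the calcium switch of the thin filament in striated muscle. Its C subunit binds calcium, its I subunit inhibits the contact between actin and myosin, and its T subunit holds the complex on tropomyosin. Each subunit has a gene used by fast skeletal fibers, and separate genes serve slow skeletal fibers and the heart, with 1 gene for troponin C in both of these. The slow genes and cardiac troponin T are also expressed for a time in embryonic and regenerating skeletal fibers, whereas cardiac troponin I is known as a form of the heart. The 8 troponin genes analysed here were taken by gene symbol from the 27179 genes of the count data: *Tnni1*, *Tnnt1* and *Tnnc1* (slow), *Tnni3* and *Tnnt2* (cardiac), and *Tnni2*, *Tnnt3* and *Tnnc2* (fast). *Tnnc1* is the gene that slow fibers and the heart share. All 8 passed edgeR's expression filter and were among the 15502 genes tested.

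Transcripts were measured by RNA-seq of 12 tibialis anterior (TA) muscles of male wild-type C57BL/6N mice, which arrived at 6 to 8 weeks of age and were used within 2 weeks. In each mouse, 1 TA was electroporated with 10 μg of empty plasmid (Control muscles, n = 6) and the opposite TA with 10 μg of a plasmid in which the cytomegalovirus (CMV) promoter drives the human long noncoding RNA *FRAIL1* (*FRAIL1* muscles, n = 6). Both TAs therefore underwent hyaluronidase injection, plasmid injection and electroporation, and both were harvested at day 7. *FRAIL1* has no counterpart among the mouse genes counted, so its own level was not measured here. The counts are sums over whole muscle, in which fewer cells of a type and less RNA per cell cannot be told apart. Total counts per muscle ranged from 45018389 to 59309210 in the Control group and from 44848322 to 60527385 in the *FRAIL1* group. Levels are given as CPM, counts scaled to the size of the library with TMM factors, and errors are SDs over the 6 muscles of a group, or for fold changes and differences the standard error (SE). *FRAIL1* muscle 5 stood apart from the other libraries at 59.5 on the first principal component, with the next muscle at 25.8, and fold changes of the 8 genes are therefore also given without both muscles numbered 5.

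The *FRAIL1* muscles held more mRNA of the slow troponins and of the cardiac *Tnnt2*. *Tnni1* was 4.82-fold higher, *Tnnt1* 3.41-fold, *Tnnt2* 3.11-fold and *Tnnc1* 2.98-fold. The cardiac *Tnni3* measured about 1 CPM in both groups. The 3 fast genes had lower means in the *FRAIL1* muscles, with folds between 0.819 and 0.851, and none of them passed the test. Thus 4 of the 8 troponin genes passed the quasi-likelihood test of edgeR at a threshold of 0.05, Benjamini-Hochberg adjusted over all genes, and all 4 were higher. Over all genes tested, 6.28% passed this test, 4.43% higher and 1.85% lower. For the same 4 genes every *FRAIL1* value lay above every Control value, which held for 3.12% of all genes. For *Tnni2* every *FRAIL1* value lay below every Control value, which held for 1.77% of all genes. The 3 fast genes had unadjusted p-values under 0.05, and DESeq2's Wald test and limma voom each placed all 3 under 0.05 after adjustment. These criteria also pass more genes in general. Over all genes DESeq2 called 2133 and limma voom 1836 in either direction, against 974 by edgeR. The share of all genes with an unadjusted p-value under 0.05 was not computed, here or for the gene lists below.

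**Figure D1:**
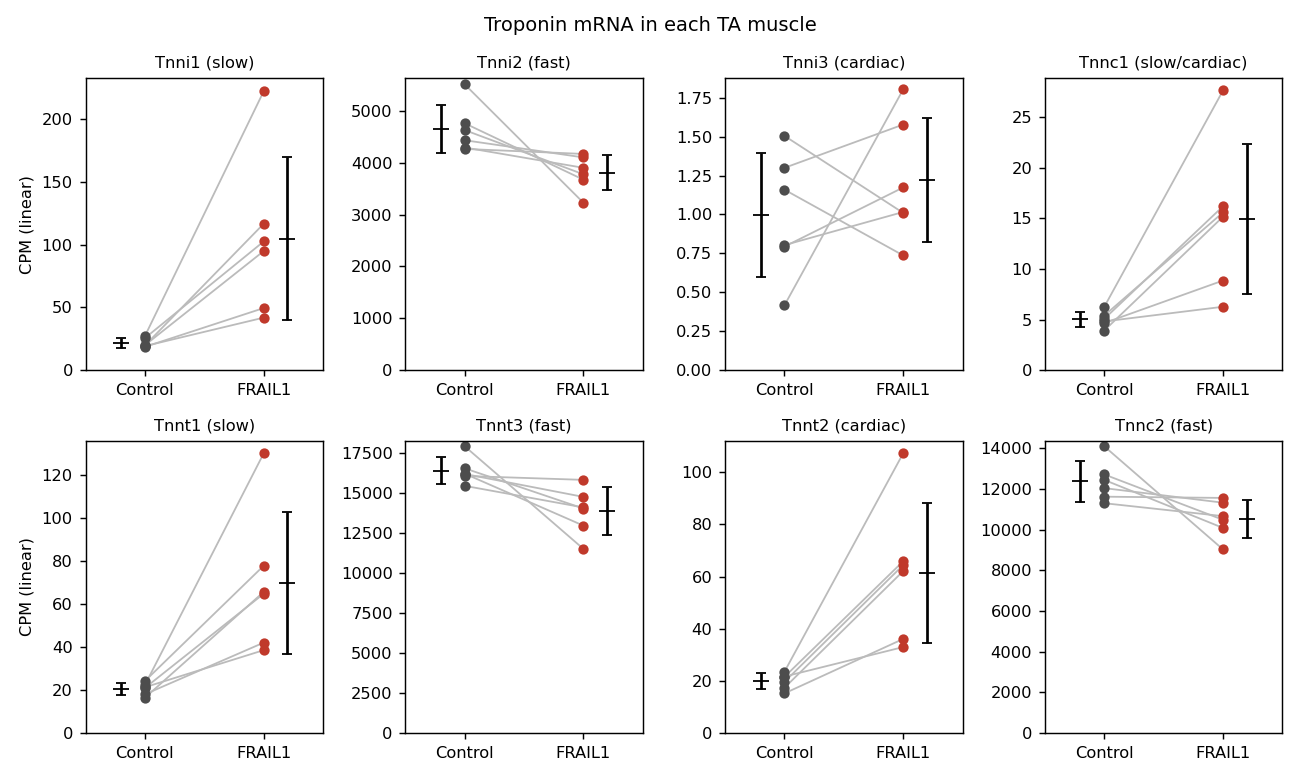
CPM of the 8 troponin genes in each TA muscle, on linear axes that start at 0 and differ between panels. Grey dots are Control muscles, red dots are *FRAIL1* muscles, grey lines join muscles of the same replicate number, and black bars give the mean and SD of 6 muscles. The red dots lie above all grey dots for *Tnni1*, *Tnnt1*, *Tnnc1* and *Tnnt2*, overlap them for *Tnni3*, *Tnnt3* and *Tnnc2*, and lie below them for *Tnni2*.

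The TA is a fast muscle, and the troponin levels of the Control muscles had that pattern. Per kilobase of exon, *Tnnc2* measured 15468 ± 1242 CPM (SD, n = 6), *Tnnt3* 10375 ± 525 and *Tnni2* 3106 ± 310. The slow and cardiac genes followed far below these, with *Tnnt1* at 9.29 ± 1.29 CPM per kilobase, *Tnni1* at 6.02 ± 1.02, *Tnnc1* at 4.82 ± 0.750, *Tnnt2* at 2.55 ± 0.397 and *Tnni3* at 0.483 ± 0.193 (SD, n = 6). The ranges of *Tnnt1* and *Tnni1* overlapped, as did those of *Tnni1* and *Tnnc1*, whereas the other neighbours in this order were separate. In the *FRAIL1* muscles the order was the same, with *Tnnt1* at 31.6 ± 15.02, *Tnni1* at 29.03 ± 18.0, *Tnnc1* at 14.4 ± 7.13 and *Tnnt2* at 7.93 ± 3.46 CPM per kilobase of exon (SD, n = 6), and each of these 4 overlapped its neighbour. The order depends on the length used. Per kilobase of coding sequence, *Tnni1* came first among the slow and cardiac genes of the Control muscles at 38.6 ± 6.56 CPM, ahead of *Tnnt1* at 23.9 ± 3.32, *Tnnt2* at 20.6 ± 3.20 and *Tnnc1* at 10.4 ± 1.62 (SD, n = 6).

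Of the 8 genes, 6 had a promoter in the RefSeq table for GRCm38.p6, and the 250 bases before the transcription start are shown for the 4 genes that rose and, for comparison, for the fast *Tnnc2*. The table was searched on both strands for the E-box (CANNTG), which myogenic basic helix-loop-helix factors bind, for the MCAT element (CATTCC), which TEAD factors bind, and for the MEF2 consensus and the CArG box of serum response factor. Capitals mark the matches, none of which overlapped another. The windows are chr1:135799171-135799420 (plus strand) for *Tnni1*, chr7:4515976-4516225 (minus strand) for *Tnnt1*, chr14:31208062-31208311 (plus strand) for *Tnnc1*, chr1:135836084-135836333 (plus strand) for *Tnnt2* and chr2:164779735-164779984 (minus strand) for *Tnnc2*. The *Tnni1* window precedes a start that lies inside the annotated span of the gene.
Tnni1: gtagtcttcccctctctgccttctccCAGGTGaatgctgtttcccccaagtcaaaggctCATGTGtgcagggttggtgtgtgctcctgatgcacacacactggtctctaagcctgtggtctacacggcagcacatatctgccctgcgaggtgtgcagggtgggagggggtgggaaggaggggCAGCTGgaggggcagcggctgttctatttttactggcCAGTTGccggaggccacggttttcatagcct
Tnnt1: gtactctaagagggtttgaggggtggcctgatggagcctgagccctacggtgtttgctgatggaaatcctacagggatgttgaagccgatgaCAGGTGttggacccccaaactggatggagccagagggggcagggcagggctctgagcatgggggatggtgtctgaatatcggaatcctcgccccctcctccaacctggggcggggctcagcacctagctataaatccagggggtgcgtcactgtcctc
Tnnc1: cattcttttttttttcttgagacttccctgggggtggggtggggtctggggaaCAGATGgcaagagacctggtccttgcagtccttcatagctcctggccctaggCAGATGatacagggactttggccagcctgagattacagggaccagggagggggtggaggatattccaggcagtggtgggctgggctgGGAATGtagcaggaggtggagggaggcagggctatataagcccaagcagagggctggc
Tnnt2: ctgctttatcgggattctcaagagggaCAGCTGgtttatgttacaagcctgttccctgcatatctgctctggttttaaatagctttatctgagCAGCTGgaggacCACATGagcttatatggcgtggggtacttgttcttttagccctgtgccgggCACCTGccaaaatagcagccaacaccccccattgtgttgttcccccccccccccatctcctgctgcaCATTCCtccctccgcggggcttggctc
Tnnc2: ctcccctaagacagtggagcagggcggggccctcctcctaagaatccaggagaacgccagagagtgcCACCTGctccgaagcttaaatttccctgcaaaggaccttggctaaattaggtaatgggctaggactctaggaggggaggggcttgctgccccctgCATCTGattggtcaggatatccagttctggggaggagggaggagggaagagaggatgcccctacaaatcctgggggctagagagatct
The *Tnni1* and *Tnnt2* windows each held 4 E-boxes, those of *Tnnc1* and *Tnnc2* 2 and that of *Tnnt1* 1. The table lists a second promoter each for *Tnni1* (chr1:135799261-135799510) and *Tnnt2* (chr1:135836739-135836988), both on the plus strand, which are not shown. They held 2 E-boxes and 1 and no MCAT element, and that of *Tnni1* overlaps the window shown. An E-box is present in 66.2% of all 32851 promoters of the table. The MCAT element was found 1 time each in the *Tnnc1* and *Tnnt2* windows, on the minus strand of the sequence shown for *Tnnc1*, and it is present in 12.6% of promoters. Neither the MEF2 consensus (2.92% of promoters) nor the CArG box (1.47%) matched in any of these windows, the second promoters included. The matches describe letters in these windows, and binding was not measured.

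The largest fold change of the 8 genes was in troponin I, the inhibitory subunit. *Tnni1* (Gene ID 21952), the slow skeletal form, lies on the plus strand of chromosome 1 of GRCm38 from 135783033 to 135810989. It measured between 18.6 and 27.1 CPM in the Control muscles, with a median of 19.8, and between 41.8 and 222 CPM in the *FRAIL1* muscles, with a median of 98.6. *FRAIL1* muscle 5 was the highest at 222 CPM, muscle 2 the lowest at 41.8 and muscle 3 next at 49.4, and even these lay above the highest Control muscle. The mean rose from 21.7 ± 3.68 to 104 ± 64.8 CPM (SD, n = 6). The log2 fold change was 2.27 (SE 0.361, adjusted p = 0.00817, edgeR). It was 1.97 without both muscles numbered 5, and over 24 alternative settings the adjusted p-value stayed under 0.05, with 0.0253 as the highest.

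*Tnni2* (Gene ID 21953), the fast partner, lies on the plus strand of chromosome 7 from 142441816 to 142444410. It ranged from 4267 to 5512 CPM in Control muscles, with a median of 4533, and from 3228 to 4171 CPM in *FRAIL1* muscles, with a median of 3840. The groups were separate, with *FRAIL1* muscle 3 just under the lowest Control muscle and *FRAIL1* muscle 5 well below the rest. The log2 fold change was -0.29 (SE 0.0838), and the adjusted p-value of 0.0525 missed the edgeR threshold. It was under 0.05 in 10 of 24 alternative settings, at 0.00773 in DESeq2 and 0.0272 in limma voom, and the log2 fold change was -0.19 without both muscles numbered 5.

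*Tnni3* (Gene ID 21954), the cardiac form, lies on the minus strand of chromosome 7 from 4518305 to 4522718 and was near the lower end of detection, with 19 to 64 counts per Control muscle and 43 to 92 per *FRAIL1* muscle. It ranged from 0.417 to 1.505 CPM in Control muscles, with a median of 0.981, and from 0.737 to 1.80 CPM in *FRAIL1* muscles, with a median of 1.09. The groups overlapped, and the *FRAIL1* muscle was the higher of the same-numbered muscles for 4 of 6 numbers. The log2 fold change was 0.29 (SE 0.289, adjusted p = 0.543, edgeR), and no alternative setting brought it under 0.05. It was 0.49 without both muscles numbered 5 (adjusted p = 0.375), and with 1 muscle left out it ranged from 0.13 without Control muscle 6 to 0.44 without Control muscle 5, with 0.14 without *FRAIL1* muscle 6. The gene *Dnaaf3* overlaps 4.17% of its exon bases.

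Troponin T, the subunit that binds tropomyosin, has 3 genes. *Tnnt1* (Gene ID 21955), the slow form, lies on the minus strand of chromosome 7 from 4504569 to 4515975. It measured 16.3 to 24.1 CPM in Control muscles, with a median of 21.1, and 38.5 to 130 CPM in *FRAIL1* muscles, with a median of 65.1. All *FRAIL1* muscles lay above all Control muscles, and muscle 5 was again the highest and muscle 2 the lowest. The mean rose from 20.5 ± 2.85 to 69.7 ± 33.1 CPM (SD, n = 6). Its log2 fold change was 1.77 (SE 0.264, adjusted p = 0.00526, edgeR), or 1.52 without both muscles numbered 5.

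*Tnnt2* (Gene ID 21956), the cardiac form, lies on the plus strand of chromosome 1 from 135836315 to 135852268. It measured 15.2 to 23.5 CPM in Control muscles with a median of 20.6, and 33.0 to 107 CPM in *FRAIL1* muscles with a median of 63.3. The groups were separate, with the extremes in the same *FRAIL1* muscles. The mean rose from 19.8 ± 3.08 to 61.5 ± 26.8 CPM (SD, n = 6). Its log2 fold change was 1.64 (SE 0.258, adjusted p = 0.00749, edgeR), or 1.45 without both muscles numbered 5. *Tnnt2* therefore changed while the other cardiac gene, *Tnni3*, did not pass the test. The difference between these 2 changes was not tested directly.

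*Tnnt3* (Gene ID 21957), the fast form, lies on the plus strand of chromosome 7 from 142498771 to 142516213. It ranged from 15473 to 17952 CPM in Control muscles, with a median of 16226, and from 11520 to 15847 CPM in *FRAIL1* muscles, with a median of 14086. The groups overlapped because *FRAIL1* muscle 3, at 15847 CPM, lay inside the Control range. Without this muscle the adjusted p-value in edgeR was 0.0327, against 0.0777 with it. The log2 fold change was -0.24 (SE 0.0816), or -0.17 without both muscles numbered 5 (adjusted p = 0.117, edgeR).

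Troponin C, the calcium sensor, has 1 gene for slow and cardiac muscle and 1 for fast muscle. *Tnnc1* (Gene ID 21924) lies on the plus strand of chromosome 14 from 31208312 to 31211729. It measured 3.92 to 6.25 CPM in Control muscles, with a median of 4.94, and 6.27 to 27.6 CPM in *FRAIL1* muscles, with a median of 15.4. The groups were separate by a narrow margin, since *FRAIL1* muscle 2 at 6.27 CPM was just above Control muscle 5 at 6.25 CPM. The mean rose from 5.02 ± 0.781 to 15.0 ± 7.42 CPM (SD, n = 6). Its log2 fold change was 1.58 (SE 0.296, adjusted p = 0.0145, edgeR), or 1.37 without both muscles numbered 5.

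*Tnnc2* (Gene ID 21925), the fast troponin C, lies on the minus strand of chromosome 2 from 164777161 to 164779734. It ranged from 11303 to 14104 CPM in Control muscles, with a median of 12248, and from 9028 to 11563 CPM in *FRAIL1* muscles, with a median of 10576. Muscle 3 was again the highest and muscle 5 the lowest of the *FRAIL1* group, and the groups overlapped. The log2 fold change was -0.23 (SE 0.0805, adjusted p = 0.0826, edgeR), and the adjusted p-value was under 0.05 in 4 of 24 alternative settings. Without both muscles numbered 5 it was -0.15 (adjusted p = 0.143). In the GENCODE annotation 74.0% of the exon bases of *Tnnc2* overlap *Ube2c* on the opposite strand. *Ube2c* measured 2.21 ± 0.581 CPM in Control and 3.50 ± 1.42 CPM in *FRAIL1* muscles (SD, n = 6), far below *Tnnc2*.

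The balance of each slow or cardiac subunit to its fast partner was compared as the log2 ratio of their counts within a muscle, in which depth, scaling and gene length cancel from the difference. Each ratio was compared by a two-sided exact permutation test of 6 against 6 muscles, whose smallest possible p-value is 0.00216, and the p-values were adjusted over 13 ratios. Control muscles had between 4.04 and 5.95 *Tnni1* reads per 1000 *Tnni2* reads, and *FRAIL1* muscles between 11.4 and 68.8. The mean log2 ratio was higher by 2.35 (SE 0.399). For *Tnnt1* the values were 1.008 to 1.49 reads per 1000 *Tnnt3* reads in Control and 2.65 to 11.3 in *FRAIL1* muscles, a log2 difference of 1.91 (SE 0.327). *Tnnt2* went from 0.943 to 1.33 reads per 1000 *Tnnt3* reads in Control to 2.28 to 9.32 in *FRAIL1* muscles, a log2 difference of 1.79 (SE 0.320). *Tnnc1* went from 0.348 to 0.449 reads per 1000 *Tnnc2* reads to 0.599 to 3.06, a log2 difference of 1.67 (SE 0.345). In these 4 ratios no *FRAIL1* muscle overlapped the Control range, and each had the smallest p-value the exact permutation test can give, 0.00216 (adjusted p = 0.00703). The ratio of *Tnni3* to *Tnni2* differed by 0.63 (SE 0.333, exact permutation p = 0.0736, adjusted p = 0.0957), and its groups overlapped. The ratios hold both the higher mean of the slow or cardiac gene and the lower mean of the fast gene, and in the first 4 the former made up most of the difference, as in troponin I with log2 fold changes of 2.27 for *Tnni1* and -0.29 for *Tnni2*. In the ratio of *Tnni3* to *Tnni2* the log2 fold changes were of the same size, 0.29 and -0.29, and neither passed edgeR's test.

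**Figure D2:**
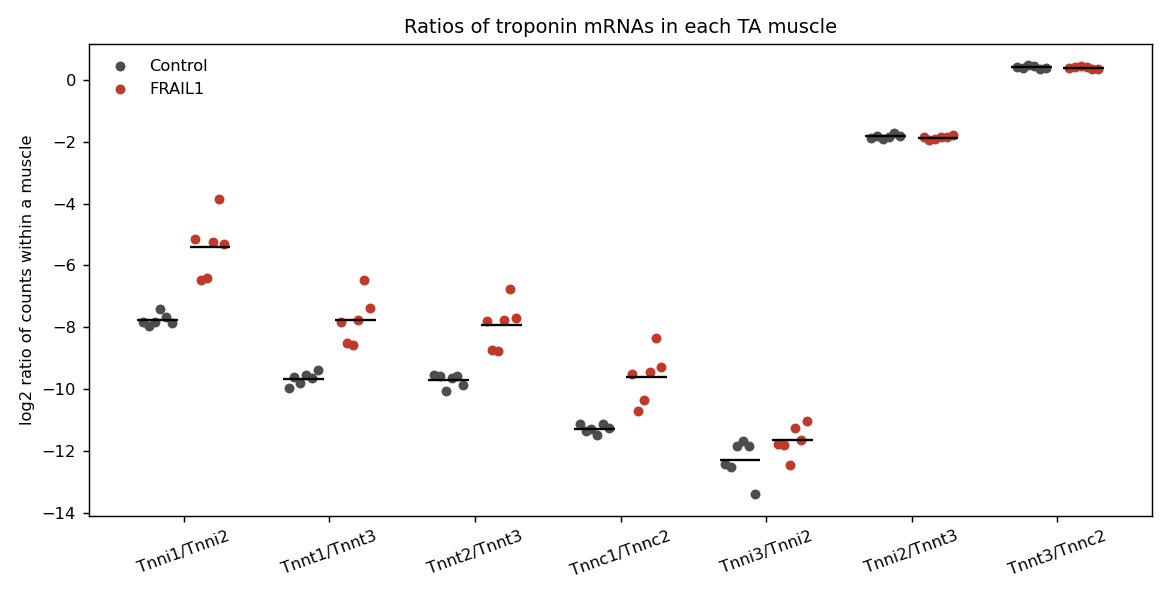
Log2 ratio of the counts of 2 troponin genes within each TA muscle, for the 5 pairs of a slow or cardiac gene with its fast partner and for 2 pairs of fast genes. Dots are single muscles in order of replicate number, grey for Control and red for *FRAIL1*, and black lines are means of 6 muscles. The red dots stand above all grey dots in the first 4 pairs and share their range in the other pairs.

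Even so, the slow and cardiac forms remained a small part of the troponin mRNA. Per kilobase of exon, they made up 0.209 ± 0.0330% of troponin I mRNA in Control and 1.19 ± 0.846% in *FRAIL1* muscles (SD, n = 6), with 2.80% in *FRAIL1* muscle 5. Their share of troponin T mRNA was 0.114 ± 0.0121% and 0.471 ± 0.278%, and their share of troponin C mRNA 0.0310 ± 0.00295% and 0.113 ± 0.0670% (SD, n = 6). With coding length in place of exons the troponin I shares were 0.4999% and 2.89%, and the troponin T shares 0.248% and 0.997%.

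Genes of 1 class were next compared with each other, by the same exact permutation test, to see whether they changed in proportion. Among the slow genes, the ratio of *Tnni1* to *Tnnc1* was higher in *FRAIL1* muscles by 0.63 on the log2 scale (SE 0.148, exact permutation p = 0.00649, adjusted p = 0.0141), so that *Tnni1* rose more than *Tnnc1*. The groups overlapped through Control muscle 4, at 2.701 against a Control median of 1.99, and without both muscles numbered 5 the difference was 0.58 (adjusted p = 0.0516). The ratio of *Tnni1* to *Tnnt1* differed by 0.41 (SE 0.160, exact permutation p = 0.0390, adjusted p = 0.0563), and that of *Tnnt1* to *Tnnc1* by 0.23 (SE 0.145, exact permutation p = 0.167, adjusted p = 0.197). Among the fast genes the differences were much smaller. The ratio of *Tnnt3* to *Tnnc2* differed by -0.014 (SE 0.0248, exact permutation p = 0.582) and that of *Tnni2* to *Tnnt3* by -0.039 (SE 0.0381, exact permutation p = 0.344). The ratio of *Tnni2* to *Tnnc2* was lower by a small amount, -0.053 (SE 0.0191, exact permutation p = 0.0195, adjusted p = 0.0317), and it lost the call without both muscles numbered 5, at -0.038 (adjusted p = 0.103).

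The *FRAIL1* muscles differed from one another in a way that the 4 risen genes shared. Relative to the Control mean, *Tnni1* stood at 10.2 in muscle 5, between 4.38 and 5.38 in muscles 1, 4 and 6, and at 1.93 and 2.28 in muscles 2 and 3. *Tnnt2* stood at 5.43 in muscle 5, between 3.14 and 3.33 in muscles 1, 4 and 6, and at 1.66 and 1.82 in muscles 2 and 3. *Tnnt1* and *Tnnc1* fell into the same order of high, middle and low muscles. The fast genes were lowest in muscle 5, where *Tnni2*, *Tnnt3* and *Tnnc2* stood at 0.694, 0.701 and 0.730 of the Control mean, and highest in muscle 3, at 0.897 to 0.965. *Tnni3* followed another order, with its highest value, 1.81, in muscle 6 and its lowest, 0.740, in muscle 3. As a description over the 12 muscles, with all genes measured in the same libraries, Pearson's r of log2 CPM after subtracting the group means was 0.950 between *Tnni1* and *Tnnt2*, 0.920 between *Tnni1* and *Tnnt1*, 0.919 between *Tnni1* and *Tnnc1*, 0.973 between *Tnni2* and *Tnnc2*, and -0.272 between *Tnni1* and *Tnni2*. For the other partners it was -0.694 (*Tnnt1* and *Tnnt3*), -0.559 (*Tnnt2* and *Tnnt3*), -0.280 (*Tnnc1* and *Tnnc2*) and 0.0946 (*Tnni3* and *Tnni2*). All of these correlations include *FRAIL1* muscle 5, which was the highest for the 4 risen genes and can weigh heavily in them.

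**Figure D3:**
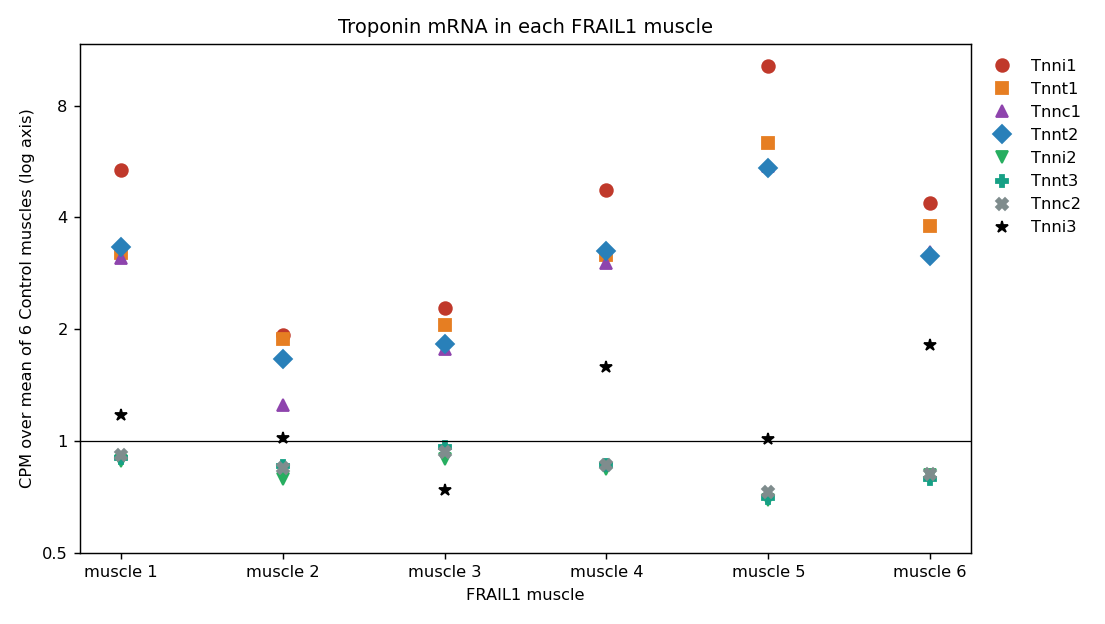
CPM of the 8 troponin genes in each of the 6 *FRAIL1* muscles, divided by the mean of the 6 Control muscles, on a log axis where the line at 1 is the Control mean. *Tnni1*, *Tnnt1*, *Tnnc1* and *Tnnt2* are highest in muscle 5, where *Tnni1* reaches 10.2, and lowest in muscle 2, while *Tnni2*, *Tnnt3* and *Tnnc2* lie below 1 in all 6 muscles.

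Troponin I and troponin T genes lie in pairs in the genome, and the members of a pair are of unlike class in 2 of 3 cases. Distances are those between GENCODE annotations, whose ends differ somewhat from the RefSeq positions given above. *Tnni1* (slow) and *Tnnt2* (cardiac) lie on the same strand, 25.4 kilobases apart, with the coding gene *Lad1* between them. Both rose, *Tnni1* by more, with a log2 ratio higher by 0.53 (SE 0.139, exact permutation p = 0.00433, adjusted p = 0.0113). *Lad1* measured 1.20 ± 0.320 and 1.23 ± 0.494 CPM (SD, n = 6) at a log2 fold change of 0.03 (adjusted p = 0.961, edgeR). *Tnnt1* (slow) and *Tnni3* (cardiac) lie only 1922 bases apart with no coding gene between them, and here the ratio of *Tnni3* to *Tnnt1* was lower in *FRAIL1* muscles (difference -1.32, SE 0.401, exact permutation p = 0.0130, adjusted p = 0.0241). That difference was -0.96 without both muscles numbered 5 (adjusted p = 0.0884). The fast pair, *Tnni2* and *Tnnt3*, is 54.4 kilobases apart with *Lsp1* between, which measured 48.0 ± 5.66 and 66.9 ± 17.9 CPM (SD, n = 6) at a log2 fold change of 0.48 (adjusted p = 0.0698, edgeR).

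The genes most like the risen troponins over the 12 muscles were found by Pearson's correlation of log2 CPM. For *Tnni1* they were *Myl4*, the embryonic and atrial myosin light chain (r = 0.994), *Igf2*, a fetal growth factor (0.994), *Myh3*, the embryonic myosin heavy chain (0.990), *Gatm*, an enzyme of creatine synthesis (0.989), and *Tnnt2* (0.988). After subtracting the group means they were *Myl4* (0.979), *Igf2* (0.975), *Nt5c2* (0.973), *Itm2c* (0.968) and *Gatm* (0.967), and of these *Itm2c* did not pass edgeR's test. For *Tnnt1* they were *Myl4*, *Cdkn2d*, *Tnni1*, *Atxn10* and *H19*, with r from 0.980 to 0.985. For *Tnnc1* they were *Tnnt2*, *Myl4*, *Rcc2*, *Pak1* and *Tnni1*, with r from 0.972 to 0.976. For *Tnnt2* they were *Mymk*, which encodes the fusion protein myomaker, *Myl4*, *Tnni1*, *Myh3* and *Spg21*, with r from 0.987 to 0.994. *Myl4* was thus among the 5 most similar genes for each of the 4 troponins. The correlations of log2 CPM include the difference between the groups, and those after subtracting the group means do not. All of these genes except *Itm2c* passed edgeR's test. The correlations carry no test of their own, and all of them include *FRAIL1* muscle 5.

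Some other genes of the slow fiber program rose. Of 12 genes, 3 rose, against 4.43% of all genes tested, none fell and 9 did not pass edgeR's test, while limma voom also called 1 lower and 1 was lower at an unadjusted p-value under 0.05. The median log2 fold change was 0.35, against 0.01 over all genes tested, but it was 0.10 when *FRAIL1* muscle 6 was left out, 0.23 when *FRAIL1* muscle 5 was, and 0.22 when both muscles numbered 5 were. The 3 that rose were *Myl6b*, a slow and non-muscle myosin light chain (1.33, SE 0.313, adjusted p = 0.0327), *Casq2*, the slow and cardiac calsequestrin (1.02, SE 0.260, adjusted p = 0.0425), and *Atp2a2*, the slow and cardiac calcium pump (0.90, SE 0.150, adjusted p = 0.00770). The count was 1 when any single Control muscle, *FRAIL1* muscle 1 or *FRAIL1* muscle 4 was left out. Of the 12 genes, 9 had a positive log2 fold change. It was negative for *Myh7b* (-0.55, SE 0.211), *Myl3* (-0.49, SE 0.567) and *Mb* (-0.26, SE 0.178). *Myh7b*, a myosin heavy chain of the list, was the gene lower before adjustment. The *FRAIL1* muscle was the lower of the same-numbered muscles for all 6 numbers in *Myh7b* and *Mb*, and for 5 in *Myl3*. The defining slow myosin genes did not pass. *Myh7*, the slow myosin heavy chain, measured 2.21 to 5.39 CPM in Control muscles and 1.48 to 15.1 CPM in *FRAIL1* muscles, where muscle 6 alone lay above the Control range and muscle 5, the highest for *Tnni1*, had the lowest value. Its log2 fold change was 0.39 (SE 0.575, adjusted p = 0.696, edgeR). *Myl2*, the slow regulatory light chain, had the same pattern, at 5.76 CPM in *FRAIL1* muscle 6 and between 0.34 and 0.82 CPM in the other *FRAIL1* muscles, against 0.28 to 1.97 CPM in Control muscles (log2 fold change 0.47, SE 0.748, adjusted p = 0.725).

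Most genes of embryonic and regenerating fibers rose together with the slow troponins and the cardiac *Tnnt2*. Of 12 genes on this list 9 rose, against 4.43% of all genes tested, none fell and 3 did not pass edgeR's test, with a median log2 fold change of 1.61 against 0.01 over all genes. Without both muscles numbered 5, 9 genes of the list were called, and 871 over all genes. The largest rises were those of *Myh3* (2.16, SE 0.373, adjusted p = 0.0124), of *Chrng*, the fetal acetylcholine receptor subunit (1.88, SE 0.228, adjusted p = 0.00160), and of *Myl4* (1.87, SE 0.310, adjusted p = 0.0104). *Myh3* measured 41.6 to 62.6 CPM in Control and 105 to 541 CPM in *FRAIL1* muscles, and muscle 5 was the highest here too. *Actc1*, the cardiac and fetal actin of the thin filament, differed by 1.03 on the log2 scale (SE 0.311, adjusted p = 0.0646), missed the threshold and overlapped between the groups, at 639 to 1270 CPM and 887 to 3068 CPM. The *FRAIL1* muscle was the higher of the same-numbered muscles for all 6 numbers.

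None of the 12 genes of the fast fiber program passed edgeR's test, and their median log2 fold change was -0.19, or -0.11 without *FRAIL1* muscle 5. At an unadjusted p-value under 0.05, 3 were lower and none was higher, and after adjustment DESeq2 and limma voom also called 3 lower and none higher. These 2 tools called 2133 and 1836 genes over all genes in either direction, against 974 by edgeR. *Myh4*, the fast type 2B myosin heavy chain, differed by -0.43 on the log2 scale (SE 0.127, adjusted p = 0.0548) and its groups were separate, at 40802 to 51023 CPM in Control and 22444 to 40293 CPM in *FRAIL1* muscles. Of the 11 tested thin filament partners of troponin (actins, tropomyosins, nebulin, tropomodulins, leiomodins and cofilin 2), none passed edgeR's test and the median was 0.01. At an unadjusted p-value under 0.05, 3 were higher and 3 lower, DESeq2 called 3 higher and 1 lower, and limma voom 1 in each direction. None of 16 regulators of the slow and fast programs, among them *Sox6*, *Tead1* and *Nfatc1*, passed edgeR's test (median -0.12, or -0.067 without *FRAIL1* muscle 5 and -0.077 without *FRAIL1* muscle 1), where 1 was higher and 5 lower at an unadjusted p-value under 0.05 and both other tools called 4 lower.

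**Figure D4:**
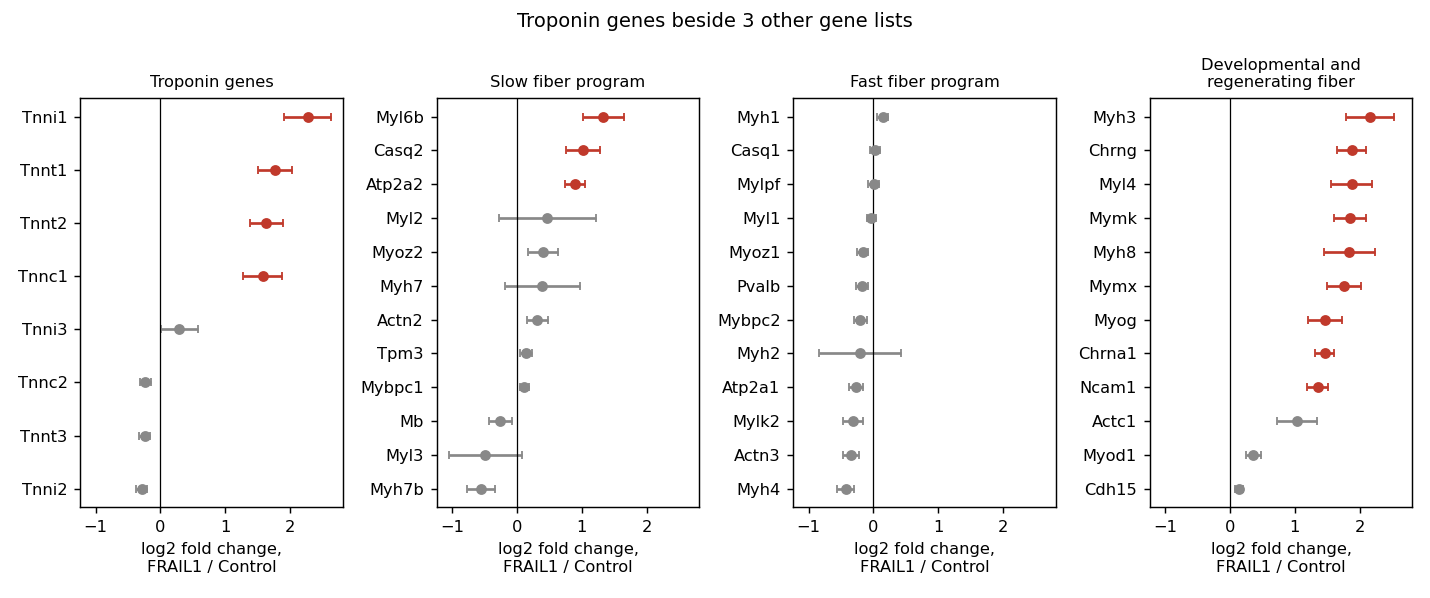
Log2 fold change between *FRAIL1* and Control muscles with its SE (bars) for the 8 troponin genes and for 12 genes each of the slow fiber program, the fast fiber program and the embryonic and regenerating fiber list. Red marks genes that passed edgeR's test and grey any other value. Red marks are 4 troponin genes, 3 slow genes, no fast gene and 9 genes of the embryonic and regenerating list.

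Markers of other cells that could bear troponin mRNA were measured beside these results. Of 8 cardiac muscle markers, 3 were tested (*Myh6*, *Gja1*, *Ryr2*) and none passed edgeR's test, with a median log2 fold change of -0.43 and 1 lower at an unadjusted p-value under 0.05. DESeq2 and limma voom called none. Their summed level was 20.2 to 33.5 CPM in Control and 17.1 to 25.2 CPM in *FRAIL1* muscles. The heart-defining *Nkx2-5* had 0 to 2 counts in every muscle, *Nppb* up to 10, *Tbx5* up to 10, *Nppa* 3 to 24, and *Hand2* 0 in all Control and up to 4 in *FRAIL1* muscles. None of 6 smooth muscle markers passed (median -0.13, summed level 4228 to 5057 and 4640 to 5611 CPM, of which the fiber gene *Des* is a part), with 1 higher and 1 lower at an unadjusted p-value under 0.05 and 0 by DESeq2 and limma voom.

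Markers of cells of damaged and repairing muscle had higher means. All 7 macrophage markers had a positive log2 fold change, with a median of 0.58 and summed levels of 177 to 290 CPM in Control and 215 to 606 CPM in *FRAIL1* muscles. None passed edgeR's test, 4 were higher at an unadjusted p-value under 0.05, 3 by DESeq2 and 1 by limma voom. Over all genes DESeq2 called 2133 and limma voom 1836 in either direction, against 974 by edgeR. No share over all genes stands beside the counts at an unadjusted p-value. Without *FRAIL1* muscle 3, edgeR called 4 of the macrophage markers higher, and without *FRAIL1* muscle 2 it called 1. Over all genes these 2 fits called 2110 and 1579, so calls became more frequent in general. The 5 fibroblast markers had a median of 0.75 and summed levels of 913 to 1738 and 1843 to 4825 CPM, and the 4 satellite cell markers a median of 0.43 and summed levels of 7.73 to 16.1 and 12.2 to 22.2 CPM. None of them passed edgeR's test. At an unadjusted p-value under 0.05, 4 fibroblast and 2 satellite cell markers were higher, DESeq2 called 2 of each, and limma voom called 2 fibroblast and 0 satellite cell markers. In edgeR, 3 fibroblast markers and 1 satellite cell marker were called without *FRAIL1* muscle 3, and 1 fibroblast marker without *FRAIL1* muscle 2 or 5. Without *FRAIL1* muscle 5 edgeR called 969 genes over all genes. The fibroblast median was 0.48 without *FRAIL1* muscle 5 and 0.43 without both muscles numbered 5. Of 6 markers of skeletal muscle fibers 1 fell, against 1.85% of all genes tested. It was *Ckm*, the muscle creatine kinase (-0.38, SE 0.108, adjusted p = 0.0482, edgeR). This call was lost without both muscles numbered 5, any single Control muscle, or *FRAIL1* muscle 1, 4 or 6. The part of these cells in the troponin result was not tested.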

How the data were processed

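Per the labels and the study's methods, the authors trimmed paired-end reads of poly(A) RNA, mapped them to mm10 and deposited counts of uniquely mapped reads per gene, without normalization. The submitters' processing notes name Trimmomatic, STAR 2.7.8a and featureCounts 2.0.1. The strand setting of counting is not given in the sources used here. Of 27179 genes listed by Gene ID, 25275 were matched to a symbol of RefSeq for GRCm38.p6, and the others held 0.280% of the counts.

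Counts of 6 Control and 6 *FRAIL1* muscles passed through filterByExpr and TMM scaling, and the groups were compared in edgeR 4.0.16 (R 4.3.3) by its robust quasi-likelihood test. The SE of an edgeR log2 fold change was calculated back from this test. It is the absolute log2 fold change divided by the square root of the F statistic, so it adds no information to the p-value. Adjustment was by Benjamini-Hochberg over 15502 genes, at a threshold of 0.05. Ratios of counts, with 0.5 added to each, were compared in SciPy 1.17.1 by two-sided exact permutation tests over all 924 splits of the 12 muscles. The edgeR test was checked on simulated counts, and the permutation test on random draws from a normal distribution. Lengths and the distances between neighbouring genes came from GENCODE, and positions and promoters from RefSeq, both for GRCm38. Transcripts of the troponin genes were searched with BLAST 2.17.0 for stretches of at least 100 bases at 98% identity in other genes. Only *Tnnc2* had a match, to the antisense *Ube2c*, and 151 bases was the longest stretch. Overlap with other genes was examined for the troponin genes only. No 2 libraries of a group were copies (chi-square per degree of freedom at least 15.4).

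The troponin genes and all gene lists were chosen with earlier results of these data known. Named from each list were the 3 largest rises and falls past the threshold, with *Myh7*, *Myl2*, *Myh4* and *Actc1*. The genes of the slow list with a negative log2 fold change, *Myh7b*, *Myl3* and *Mb*, were also named. For each risen troponin, the 5 genes with the highest correlation were named. *Lad1*, *Lsp1* and *Ube2c* were named for their position, and other genes as members of a list. Alternatives were the replicate number as a block, scaling by DESeq2's size factors, by the upper quartile or by TMM without mitochondrial and the 20 most abundant genes, other filters, each muscle left out in turn, a fit that was not robust, DESeq2 1.42.0, limma voom (limma 3.58.1), a pseudocount of 2 and other gene lengths. Leaving out both muscles numbered 5 was added after seeing the data. The labels do not state which animal a muscle came from, and p-values measure the spread between these muscles.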

Additional observations from a re-analysis of the deposited data

Results flagged for a closer look

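In 42 groups of 6 muscles (the level of each of the 8 genes and each of the 13 ratios, in each group), 3 had 1 muscle far from the other 5 by Dixon's criterion, which chance gives in about 1 of 20 groups. The log2 ratio of *Tnni1* to *Tnnc1* was 2.701 in Control muscle 4, against a Control median of 1.99. The log2 ratio of *Tnnt1* to *Tnnc1* was 2.62 in *FRAIL1* muscle 2, against a *FRAIL1* median of 2.24. The log2 ratio of *Tnni3* to *Tnnt1* was -6.99 in *FRAIL1* muscle 5, against a *FRAIL1* median of -5.61.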

How the results depend on the processing

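The rises of *Tnni1*, *Tnnt1*, *Tnnc1* and *Tnnt2* kept their direction and an adjusted p-value under 0.05 in all 24 alternative fits. The number of genes called, 974, was 2186 with the replicate block, 2133 by DESeq2, 2808 by DESeq2 with the block, 1836 by limma voom, 2305 with the block and without both muscles numbered 5, and 364 to 2110 with 1 muscle left out, the extremes being without *FRAIL1* muscles 1 and 3. Troponin genes called were 4, or 7 by DESeq2 with or without the block and by limma voom, and 4 to 7 with 1 muscle left out. The fast genes came under the threshold in several fits. *Tnni2* did so at -0.29 with DESeq2's size factors, -0.28 with upper-quartile scaling, -0.29 with TMM without abundant genes, -0.28 with at least 10 counts in every muscle, -0.30 by DESeq2 with or without the block, -0.25 by limma voom and -0.19 with the block and without both muscles numbered 5. *Tnnt3* did so at -0.25 and -0.26 by DESeq2 without and with the block, -0.22 by limma voom and -0.17 with the block and without both muscles numbered 5, and *Tnnc2* at -0.24 by DESeq2 without and with the block and -0.20 by limma voom. With 1 muscle left out *Tnni2* ranged from -0.32 to -0.23, *Tnnt3* from -0.28 to -0.20 and *Tnnc2* from -0.26 to -0.19, and all 3 were called without *FRAIL1* muscle 3 and *Tnni2* also without *FRAIL1* muscle 5.

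Whether muscles of 1 number pair was checked on their deviations from the group means. The correlations for numbers 1 to 6 were 0.254, 0.162, 0.282, 0.263, 0.0547 and 0.185, against a mean of -0.0400 between numbers. Of the Control muscles, 5 of 6 correlated best with the *FRAIL1* muscle of their own number, and Control muscle 5 did so with *FRAIL1* muscle 1. These values go with pairing for most numbers, but the labels do not state the animal. The main fit has no term for the mouse because the study's methods name none, and the block is given as an alternative. Sign flips within a number cannot give a p-value under 0.0312. No ratio passed adjustment over 13 under the block, and the lowest adjusted p-value of the sign-flip test was 0.0580. The differences are those of the unpaired test, 2.35 (*Tnni1*/*Tnni2*), 1.91 (*Tnnt1*/*Tnnt3*), 1.79 (*Tnnt2*/*Tnnt3*), 1.67 (*Tnnc1*/*Tnnc2*), 0.63 (*Tnni1*/*Tnnc1*) and 0.53 (*Tnni1*/*Tnnt2*) at an exact adjusted p of 0.0580, and -0.053 (*Tnni2*/*Tnnc2*) and -1.32 (*Tnni3*/*Tnnt1*) at 0.0903. Without both muscles numbered 5, *Tnni1*/*Tnnc1* (0.58), *Tnni2*/*Tnnc2* (-0.038) and *Tnni3*/*Tnnt1* (-0.96) missed the threshold. With 1 muscle left out *Tnni2*/*Tnnc2* ranged from -0.063 to -0.041 and was lost without Control muscle 2, 4 or 5 or *FRAIL1* muscle 1, 2, 3 or 5, and *Tnni3*/*Tnni2* ranged from 0.40 to 0.78 and was called without *FRAIL1* muscle 3. The block raised the calls to 2 of the thin filament partners, 3 of the fast program, 5 of the regulators, 11 of the embryonic and regenerating list, 3 macrophage markers (*Adgre1*, *Lyz2*, *Csf1r*), 2 satellite cell markers (*Pax7*, *Myf5*) and 2 fiber markers. Over all genes the block gave 2186 calls, against 974 in the main fit. It called *Actc1* (adjusted p = 0.0107), and it took the slow program to 2 calls, without *Casq2* (adjusted p = 0.0727), and to a median of 0.12. DESeq2's size factors gave 1 thin filament partner, and leaving out both muscles numbered 5 gave 1 regulator. With 1 muscle left out the calls ranged over 0 to 1 (thin filament), 1 to 3 (slow), 0 to 3 (fast), 0 to 4 (regulators), 8 to 10 (embryonic and regenerating), 0 to 4 (macrophage), 0 to 3 (fibroblast), 0 to 1 (satellite cell) and 0 to 3 (fiber markers), with the most fast genes, regulators and markers of these kinds without *FRAIL1* muscle 3. That fit also called the most genes over all genes, 2110. Coding length gave shares in Control and *FRAIL1* muscles of 0.4999% and 2.89% for troponin I, 0.248% and 0.997% for troponin T, and 0.0401% in Control for troponin C. The longest transcript gave 0.166% for troponin T and 0.0392% for troponin C in Control. Depth limits only *Tnni3* among the troponin genes. The cause of these changes was not tested.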
